A study of Mus musculus with 6 samples.

Results

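The mitochondrial solute carriers were read on microarrays of mouse dendritic cells that carried an adenovirus, the cytokine TNFa, both or neither. They were taken as all probe sets annotated with a single gene symbol beginning Slc25a. This rule found 65 probe sets for 33 genes, among 22626 probe sets and 12393 genes in all. Of the 65, 54 probe sets for 30 genes were above a signal of 53.46 on at least 2 arrays and were counted as measured, as were 14906 probe sets of the whole array. That signal is the 40th percentile of all signals and served as a floor: lower signals were set to it. The rule used the gene symbol and the level, and no difference between groups.

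The dendritic cells, antigen-presenting cells of the immune system, were grown from bone marrow of a female CAR-transgenic mouse, 13 weeks old. The labels do not name the promoter of the transgene. All groups shared 7 days of expansion and 7 days of differentiation with 250 U/ml GM-CSF, and 8 ug of total RNA was labelled from each. The 6 groups, each with 1 Affymetrix MOE430A array, were AdIkBa-SR+TNFa, AdIkBa-SR, AdOVA+TNFa, AdOVA, TNFa and untreated. AdIkBa-SR is an adenovirus for a super-repressor of NF-kB, and AdOVA is its control virus. Virus was given at 1500 particles per cell for 2 h and was followed by 18 h of culture, and TNFa was given at 50 ng/ml for 4 h. The cells of the TNFa and untreated groups received no virus, and the labels record no mock transduction. The series asks which genes TNFa and the virus change and which of these changes the super-repressor prevents.

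Carriers of the SLC25 family sit mainly in the inner mitochondrial membrane and exchange metabolites between the cytosol and the matrix. The adenine nucleotide carriers bring ADP in and take ATP out, and the phosphate carrier brings in the phosphate that ATP synthase needs. Other members carry di- and tricarboxylates, amino acids, acylcarnitines, cofactors, iron or glutathione, and dendritic cells are known to shift towards glycolysis when they are activated.

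The promoters of Slc25a5 and Slc25a4, the adenine nucleotide carriers that fell with AdOVA below, and of the glutathione carrier Slc25a39 are shown because the results turn on these genes. They are RefSeq sequences of the build GRCm38.p6, from 250 bases before to 50 bases after the annotated start, written 5′ to 3′ along the gene's strand, and capitals mark matches to the motifs searched on either strand. The promoter of Slc25a5 lies at chrX:36795347-36795646 on the plus strand, that of Slc25a4 at chr8:46211013-46211312 on the minus strand and that of Slc25a39 at chr11:102407468-102407767 on the minus strand.
Slc25a5: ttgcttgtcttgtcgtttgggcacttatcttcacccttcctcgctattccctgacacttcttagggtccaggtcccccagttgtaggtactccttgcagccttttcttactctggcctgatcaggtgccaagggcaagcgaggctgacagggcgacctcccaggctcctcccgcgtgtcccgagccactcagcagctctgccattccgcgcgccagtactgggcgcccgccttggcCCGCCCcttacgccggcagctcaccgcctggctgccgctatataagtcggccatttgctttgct
Slc25a4: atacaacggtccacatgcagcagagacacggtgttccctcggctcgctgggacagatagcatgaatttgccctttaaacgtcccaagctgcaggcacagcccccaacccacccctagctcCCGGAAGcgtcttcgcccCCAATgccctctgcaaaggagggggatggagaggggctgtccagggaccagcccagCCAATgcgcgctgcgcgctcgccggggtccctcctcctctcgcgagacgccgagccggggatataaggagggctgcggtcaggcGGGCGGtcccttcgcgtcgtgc
Slc25a39: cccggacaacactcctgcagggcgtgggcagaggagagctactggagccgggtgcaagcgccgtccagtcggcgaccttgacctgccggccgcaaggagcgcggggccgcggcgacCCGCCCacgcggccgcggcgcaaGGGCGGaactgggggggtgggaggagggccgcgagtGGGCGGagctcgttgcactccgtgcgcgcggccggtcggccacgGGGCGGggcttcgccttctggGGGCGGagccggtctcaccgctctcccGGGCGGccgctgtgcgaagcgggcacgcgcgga
The capitals in Slc25a5 are 1 Sp1 box (GGGCGG, here as its reverse complement). Slc25a4 has 1 Sp1 box, a pair of CCAAT boxes and an ETS core (CCGGAAG), and Slc25a39 has 6 Sp1 boxes and no other motif of the set.

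In all, 33 promoter sequences were found for 24 of the 30 measured genes, with some genes having several starts. Their median GC content was 59.67%, against 52.67% over all 32851 promoters in the table. An Sp1 box stood in 31 of the 33 (93.9%), against 35.7% of all promoters, and a CCAAT box in 18 (54.5%), against 37.4%. The ETS core stood in 6 (18.2%), against 8.86%. The exact string TATAAA, 1 form of the TATA box, stood in 0 of the 33, against 13.6%, and the NRF1 core GCGCATGCG in 0, against 1.75%. Other forms of the TATA box were not searched, so the 0 does not show that these promoters lack one. The YY1 core AAGATGGCG stood in 1 (3.03%), that of the phosphate carrier Slc25a3, against 1.40%, and the cAMP response element TGACGTCA in 2 (6.06%), those of Slc25a25 and Slc25a36, against 1.79%. The NF-kB consensus matched 2 of the 33 (6.06%), the promoters of Slc25a10 and Slc25a17, against 8.46% of all promoters. None of the 3 promoters shown holds it in this window. The windows of Slc25a14 overlap, as do those of Slc25a23, and share matches, so the 33 are not separate counts. The shares over all promoters were not limited to measured genes. Sequences with more G and C hold an Sp1 box more often by their composition, and a match is not evidence of a bound site.

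The arrays had a 2% trimmed mean of 200.1 each, with median signals of 74.4 to 88.5 and 57.9% to 63.4% of probe sets above the floor. The headers record 1 hybridization round for the AdOVA, TNFa and untreated arrays and another for the other 3 arrays. The AdIkBa-SR array was recorded with 0 wash cycles where the others had 10 and 4, and with a first stain of 420 s where the others had 600 s. The signal of the 5′ probe set of 18S ribosomal RNA was 2601.1 on the AdOVA+TNFa array, against 120.3 to 537.0 on the others, and the 3′ over 5′ ratio of Actb was 1.84 on the AdOVA array, against 1.09 to 1.58 on the others. Of the 10 markers of dendritic cells, 9 were measured, and their summed signal ran from 4819.4 to 7052.0. The exception was Flt3, above the floor on the AdOVA array alone. The summed markers of granulocytes were lowest on the AdOVA+TNFa array (9603.4) and highest on the AdIkBa-SR+TNFa array (24895.7). Of them S100a8, S100a9, Prtn3, Camp and Elane were lowest on AdOVA+TNFa, the last 2 under the floor there. Ltf was lowest on AdOVA (387) and Ngp on TNFa (1324). Mpo ran the other way, with 147 on AdOVA+TNFa and 162 on AdOVA, against 92.8 to 120 elsewhere. The T-cell genes Cd3d, Cd3e and Cd3g were under the floor on all 6 arrays, as were the B-cell gene Pax5 and the NK-cell gene Klrd1. Other markers of these cells passed it. Of those with a probe set, 1 of 4 for T cells, 2 of 4 for B cells and 2 of 4 for NK cells were measured. The NK-cell gene Prf1 was above the floor on all 6 arrays, at 60.4 to 103.2. In such bulk samples, fewer cells of a type and less RNA per cell cannot be told apart.

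With 1 array per group, each group difference was read in 2 pairs without a common array. For AdOVA the pairs were AdOVA+TNFa over TNFa and AdOVA over untreated, and for the super-repressor AdIkBa-SR+TNFa over AdOVA+TNFa and AdIkBa-SR over AdOVA. A log2 difference given with a standard error (SE) is the mean of both pairs from a limma fit to all 6 arrays, and its adjusted p is over all 14906 measured probe sets (Benjamini-Hochberg, threshold 0.05). Its error measures only how far the TNFa responses with AdOVA and without virus differ, since that is the 1 residual degree of freedom. No group has a replicate culture. The AdOVA over no virus and AdIkBa-SR over AdOVA comparisons share the AdOVA arrays, so a low AdOVA signal enters both.

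In the fit described above, the transcripts of both adenine nucleotide carriers on the array fell with AdOVA. No other carrier gene passed the test in that fit, and the genes called under other processing are named at the end. Slc25a5, the ADP/ATP carrier of dividing cells, fell in 7 of its 8 measured probe sets, and Slc25a4, the carrier best known from heart and muscle, in 3 of 3. With AdIkBa-SR in place of AdOVA, 6 of the 8 Slc25a5 probe sets rose. In these 6 arrays the AdIkBa-SR levels of Slc25a5 stood beside those of cells without virus. Over the family, limma called 10 of the 54 measured probe sets fallen and 0 risen with AdOVA, where it called 3.86% of all measured probe sets fallen, and 20 of the 54 had an unadjusted p under 0.05, as had 3497 of all 14906. Of all 14906, 600 rose. These 10 come from 2 of 30 genes. Read by the probe set of highest mean signal of each gene, 2 of 30 carrier genes fell, where 3.49% of 8934 genes did. The fall of Slc25a5 with AdOVA was known from these data before the family was chosen.

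**Figure D1:**
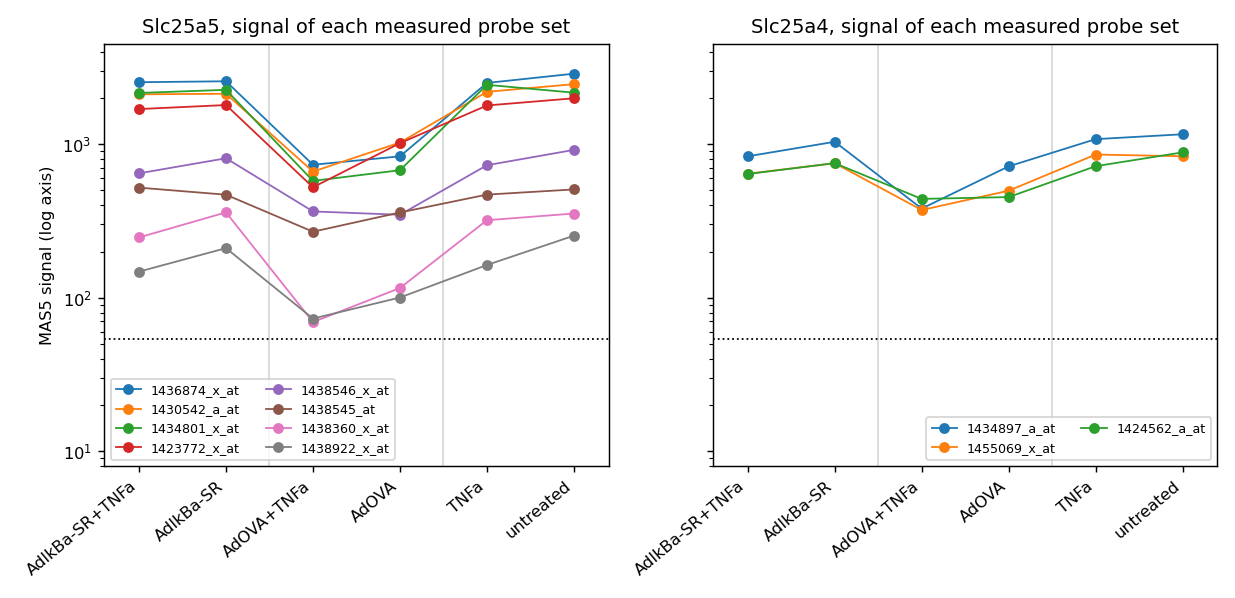
MAS5 signal (log axis) of each measured probe set of Slc25a5 (left, 8 probe sets) and Slc25a4 (right, 3 probe sets) on the 6 arrays, 1 point per array, with lines that join the points of a probe set and a dotted line at the floor of 53.46. All 11 probe sets have their lowest 2 signals on the AdOVA+TNFa and AdOVA arrays.

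The probe set 1436874_x_at of Slc25a5 had signals of 2536 with AdIkBa-SR+TNFa, 2572 with AdIkBa-SR, 735 with AdOVA+TNFa, 834 with AdOVA, 2509 with TNFa and 2882 untreated. Both AdOVA arrays were low and the other 4 lay together. Its log2 difference was -1.78 (SE 0.24, limma adjusted p = 0.00016) for AdOVA over no virus and 1.71 (SE 0.24, adjusted p = 0.00037) for AdIkBa-SR over AdOVA. The pairs of AdOVA arrays gave falls of 3.41-fold with TNFa and 3.46-fold without it.

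The probe set 1434801_x_at had signals of 2158 with AdIkBa-SR+TNFa, 2262 with AdIkBa-SR, 577 with AdOVA+TNFa, 677 with AdOVA, 2439 with TNFa and 2167 untreated. Its log2 differences were -1.88 (SE 0.25, limma adjusted p = 9.6e-05) for AdOVA over no virus and 1.82 (adjusted p = 0.0002) for AdIkBa-SR over AdOVA. The falls were 4.23-fold with TNFa and 3.20-fold without it. Again both AdOVA arrays stood below the other 4. The probe set 1430542_a_at had 2115 with AdIkBa-SR+TNFa, 2132 with AdIkBa-SR, 664 with AdOVA+TNFa, 1026 with AdOVA, 2196 with TNFa and 2463 untreated. Its log2 differences were -1.50 (limma adjusted p = 0.0011) and 1.36 (adjusted p = 0.0028) for the same comparisons. The probe set 1423772_x_at had 1695 with AdIkBa-SR+TNFa, 1801 with AdIkBa-SR, 524 with AdOVA+TNFa, 1016 with AdOVA, 1789 with TNFa and 1992 untreated. In both of these probe sets the AdOVA+TNFa array was the lowest and the AdOVA array lay between it and the other 4. For 1423772_x_at the log2 differences were -1.37 (limma adjusted p = 0.0028) for AdOVA over no virus and 1.26 (adjusted p = 0.0061) for AdIkBa-SR over AdOVA.

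The dimmer Slc25a5 probe sets also had both AdOVA arrays lowest. The probe set 1438546_x_at had 646 with AdIkBa-SR+TNFa, 810 with AdIkBa-SR, 365 with AdOVA+TNFa, 347 with AdOVA, 730 with TNFa and 919 untreated. It fell by 1.20 on the log2 scale with AdOVA (limma adjusted p = 0.005) and rose by 1.02 with AdIkBa-SR over AdOVA (adjusted p = 0.016). The probe set 1438360_x_at had 247 with AdIkBa-SR+TNFa, 360 with AdIkBa-SR, 69.4 with AdOVA+TNFa, 116 with AdOVA, 320 with TNFa and 354 untreated. Its log2 differences were -1.91 (SE 0.31, limma adjusted p = 0.00078) and 1.73 (adjusted p = 0.0022), of the size seen in the brighter probe sets although its AdOVA+TNFa signal was near the floor. The probe set 1438922_x_at had 148 with AdIkBa-SR+TNFa, 210 with AdIkBa-SR, 73.1 with AdOVA+TNFa, 100 with AdOVA, 163 with TNFa and 254 untreated. It fell by 1.25 with AdOVA (limma adjusted p = 0.024), and its difference of 1.04 for AdIkBa-SR over AdOVA did not pass the test (adjusted p = 0.061).

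The one Slc25a5 probe set that passed neither test was 1438545_at. It had 522 with AdIkBa-SR+TNFa, 469 with AdIkBa-SR, 269 with AdOVA+TNFa, 359 with AdOVA, 470 with TNFa and 508 untreated, so both AdOVA arrays were again the lowest. Its log2 differences were -0.65 (limma adjusted p = 0.12) and 0.67 (adjusted p = 0.12). It is also the only one of the 8 with the plain suffix _at. The names of 6 end in _x_at, which the array's maker gives to probe sets whose probes may also bind other transcripts, and 1430542_a_at may read several transcripts of the gene. Whether the Slc25a5 probe sets also read Slc25a4, or those of Slc25a4 also read Slc25a5, was not tested. Averaged over all 8, the log2 difference was -1.44 for AdOVA over no virus and 1.33 for AdIkBa-SR over AdOVA.

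The differences of Slc25a4 were smaller in size, and whether they differ from those of Slc25a5 was not tested. Its probe set 1434897_a_at had 834 with AdIkBa-SR+TNFa, 1038 with AdIkBa-SR, 381 with AdOVA+TNFa, 718 with AdOVA, 1080 with TNFa and 1161 untreated. The log2 difference for AdOVA over no virus was -1.10 (SE 0.25, limma adjusted p = 0.012), with a fall of 2.84-fold with TNFa and 1.62-fold without it. The probe set 1455069_x_at had 642 with AdIkBa-SR+TNFa, 753 with AdIkBa-SR, 373 with AdOVA+TNFa, 498 with AdOVA, 857 with TNFa and 835 untreated, a log2 difference of -0.97 (limma adjusted p = 0.02). In both, AdOVA+TNFa was the lowest array and AdOVA the next. The probe set 1424562_a_at had 640 with AdIkBa-SR+TNFa, 753 with AdIkBa-SR, 440 with AdOVA+TNFa, 453 with AdOVA, 719 with TNFa and 885 untreated, a log2 difference of -0.84 (limma adjusted p = 0.039). For AdIkBa-SR over AdOVA the differences were 0.83, 0.69 and 0.64 for these probe sets (limma adjusted p = 0.056, 0.096 and 0.12), and none passed the test. In the additive model described below, none of the 3 Slc25a4 falls with AdOVA passed the test (limma adjusted p = 0.054, 0.057 and 0.076). A further Slc25a4 probe set, 1424563_at, the only one of the gene with the plain suffix _at, was under the floor on all 6 arrays. Whether the 3 measured ones also read Slc25a5 was not tested, so their falls may not be separate from those of Slc25a5.

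Slc25a5 differed in the same directions within each hybridization round. On the AdOVA array its 8 probe sets were 1.41-fold to 3.46-fold lower than on the untreated array, both of the first round. On the AdIkBa-SR+TNFa array they were 1.77-fold to 3.74-fold higher than on the AdOVA+TNFa array, both of the second round and washed alike. Leaving out the AdOVA+TNFa array, or adding the round as a block, leaves a residual only in an additive model, which takes 1 TNFa response for all arrays. On all 6 arrays that model called 6 carrier probe sets fallen with AdOVA, all of Slc25a5. Without the AdOVA+TNFa array it called 0, and with the block also 0, where 0 of all 14906 probe sets were called in either direction and 2042 had an unadjusted p under 0.05. For 1436874_x_at the additive model gave a log2 difference of -1.78 (limma adjusted p = 0.0062), and -1.74 without the array or with the block (adjusted p = 0.33 and 0.34). Counted by fold alone, 6 carrier probe sets, all of Slc25a5, had a fall of at least 2-fold in each AdOVA pair, as did 1.37% of all measured probe sets, and 5, again all of Slc25a5, were at least 2-fold higher with AdIkBa-SR than with AdOVA in both pairs, where 1.13% were. Of the 6, 1438546_x_at lay at the threshold, at 2.00-fold with TNFa.

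The markers of myeloid cells moved in both directions. Among the 9 measured markers of dendritic cells, Itgax, the integrin CD11c, was lowest on both AdOVA arrays, with 847 on the AdIkBa-SR+TNFa array, 664 on AdIkBa-SR, 329 on AdOVA+TNFa, 247 on AdOVA, 755 on TNFa and 699 on untreated. The chemokine receptor gene Ccr7 was highest there, with 516 on AdOVA+TNFa and 402 on AdOVA, against 101 to 200 on the other 4, as was the transcription factor gene Zbtb46, with 112 and 147, against 11.3 to 90.1. The other 6 were neither lowest nor highest on both. Markers of macrophages, all 5 measured, summed to between 21423.3 on the AdIkBa-SR+TNFa array and 28814.8 on the AdOVA array. The sum was 24401.7 on AdOVA+TNFa, 24019.5 on TNFa and 21503.9 on untreated. Among them Cd14 was highest on both AdOVA arrays, with 14207 on AdOVA+TNFa and 16297 on AdOVA, against 8866 to 12377 elsewhere. Mertk was lowest on both, with 284.3 and 151.6, against 284.7 to 350.8, and the others were neither. The summed markers of mast cells and basophils were 1691.2 and 1751.5 on the AdIkBa-SR+TNFa and AdIkBa-SR arrays, 1045.6 and 1090.4 on the AdOVA+TNFa and AdOVA arrays, and 1239.9 and 1471.9 on the TNFa and untreated arrays. Of these markers, Cpa3 alone was lowest on both AdOVA arrays, with 286 on AdOVA+TNFa and 275 on AdOVA, against 480 to 561 elsewhere. Mcpt8 and Fcer1a were lowest on AdOVA+TNFa alone. Gata2 was highest on AdOVA+TNFa (326), and Ms4a2 was lowest on AdIkBa-SR+TNFa (59.2). The part of cell composition in the Slc25a5 values was not tested.

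**Figure D2:**
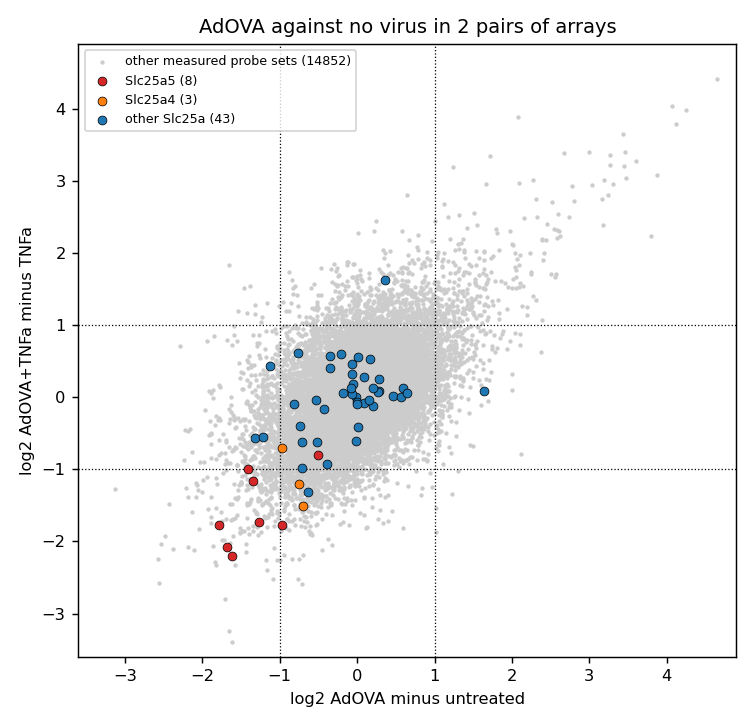
Log2 difference of AdOVA over untreated (x axis) and of AdOVA+TNFa over TNFa (y axis) for the 14906 measured probe sets, with dotted lines at a change of 2-fold. The 8 Slc25a5 probe sets (red) and 3 Slc25a4 probe sets (orange) lie at the lower left, and most of the other 43 carrier probe sets (blue) lie near the centre.

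The remaining nucleotide carriers divided. Slc25a24, a calcium-regulated carrier of ATP-Mg and phosphate, had 153 with AdIkBa-SR+TNFa, 174 with AdIkBa-SR, 108 with AdOVA+TNFa, 93.4 with AdOVA, 213 with TNFa and 153 untreated. Both AdOVA arrays were the lowest, but its log2 difference of -0.85 did not pass the test (limma adjusted p = 0.12). Slc25a25, a carrier of the same kind, had 104 with AdIkBa-SR+TNFa, 29.5 with AdIkBa-SR, 227 with AdOVA+TNFa, 68.7 with AdOVA, 73.8 with TNFa and 33.3 untreated. It was therefore higher with TNFa in each virus state, at least 1.94-fold with AdIkBa-SR, 3.31-fold with AdOVA and at least 1.38-fold without virus, where "at least" marks a lower array set to the floor. Neither its TNFa difference (log2 1.10, SE 0.32, limma adjusted p = 0.17) nor its AdOVA difference (log2 0.99, adjusted p = 0.066) passed the test. Slc25a42, a coenzyme A carrier, ranged from 82.2 to 126, and the peroxisomal carrier Slc25a17 from 60.01 to 93.7. Slc25a23 was above the floor on 2 arrays, AdIkBa-SR (74.7) and TNFa (55.9). None of these 3 was called in any comparison.

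None of the carriers of other nucleotides and cofactors was called. Slc25a51, the NAD+ carrier, is read by 3 measured probe sets, of which 1433816_at ranged from 565 to 720 and 1454712_at from 193 to 311, while 1427425_at passed the floor on 2 arrays alone, with 79.5 on AdOVA and 55.0 on AdIkBa-SR. The pyrimidine nucleotide carriers Slc25a33 and Slc25a36 had ranges of 127 to 158, and of 330 to 554 in 1419657_a_at and 109 to 196 in 1419656_at. Slc25a26, the S-adenosylmethionine carrier, ranged from 20.7 to 66.2 and was above the floor on 3 arrays. Read by the brightest probe set, the 4 genes of this group had log2 differences of -0.05 to 0.19 for AdOVA over no virus and of -0.53 to 0.03 for AdIkBa-SR over AdOVA.

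Among the phosphate and carboxylate carriers, the phosphate carrier Slc25a3 had its own lowest signals on the AdOVA arrays. It had 2530 with AdIkBa-SR+TNFa, 2855 with AdIkBa-SR, 1754 with AdOVA+TNFa, 1955 with AdOVA, 2691 with TNFa and 2805 untreated. Both AdOVA arrays stood below the other 4, and AdOVA was 1.54-fold lower with TNFa and 1.44-fold lower without it, but the log2 difference of -0.57 (SE 0.26) did not pass the test (limma adjusted p = 0.18). The oxoglutarate carrier Slc25a11 ranged from 478 to 704. The dicarboxylate carrier Slc25a10 had 298 with AdIkBa-SR+TNFa, 177 with AdIkBa-SR, 313 with AdOVA+TNFa, 139 with AdOVA, 205 with TNFa and 236 untreated in 1416954_at, so it was 2.25-fold higher with TNFa in AdOVA cells, 1.68-fold higher in AdIkBa-SR cells and 1.15-fold lower without virus. Its other probe set, 1416955_at, ranged from 13.4 to 102. Slc25a35 passed the floor on both AdOVA arrays alone, at 63.7 with TNFa and 65.2 without it.

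Among amino acid and carnitine carriers none was called. Slc25a20, which brings acylcarnitines in for fatty acid oxidation, had 180 with AdIkBa-SR+TNFa, 153 with AdIkBa-SR, 191 with AdOVA+TNFa, 382 with AdOVA, 180 with TNFa and 123 untreated in 1423108_at. The AdOVA array alone stood high, 3.11-fold over untreated, while AdOVA+TNFa over TNFa was 1.06-fold (log2 0.86 over both pairs, limma adjusted p = 0.15). Its other probe set, 1423109_s_at, ranged from 99.7 to 151 and was also highest on the AdOVA array. Slc25a45 had 469 with AdOVA+TNFa and 429 with AdOVA, against 721 with TNFa and 702 untreated (log2 -0.66 for AdOVA over no virus, limma adjusted p = 0.098). The glutamate carrier Slc25a22 ranged from 105 to 235, the glycine carrier Slc25a38 from 150 to 201, and Slc25a47 from 77.3 to 149. The basic amino acid carrier Slc25a29 ranged from 199 to 287 in 1438187_at and from 137 to 206 in 1438188_x_at, and these probe sets differed in sign for AdOVA (log2 0.35 and -0.29). The branched-chain amino acid carrier Slc25a44, with 3 measured probe sets, ranged from 81.5 to 203. The ornithine carrier Slc25a15 ranged from 57.6 to 132 in 1420967_at and from 45.5 to 73.7 in 1420966_at.

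Slc25a39, a carrier that brings glutathione into mitochondria, had its highest and lowest signals on arrays of virus-treated cells. Its probe set 1456176_x_at had 620 with AdIkBa-SR+TNFa, 313 with AdIkBa-SR, 264 with AdOVA+TNFa, 204 with AdOVA, 387 with TNFa and 475 untreated. It rose with AdIkBa-SR over AdOVA (log2 0.92, SE 0.27, limma adjusted p = 0.046), a call that did not hold in the additive model (adjusted p = 0.14 on all 6 arrays and 0.56 without the AdOVA+TNFa array). Its difference of -0.88 for AdOVA over no virus lay just outside the threshold (adjusted p = 0.051). The probe set 1453111_a_at had 369 with AdIkBa-SR+TNFa, 140 with AdIkBa-SR, 163 with AdOVA+TNFa, 81.3 with AdOVA, 243 with TNFa and 203 untreated. The probe set 1439410_x_at had 1435 with AdIkBa-SR+TNFa, 925 with AdIkBa-SR, 928 with AdOVA+TNFa, 612 with AdOVA, 994 with TNFa and 1072 untreated. In all 3 probe sets the AdIkBa-SR+TNFa array was the highest and the AdOVA array the lowest. The last 2 were not called for AdIkBa-SR over AdOVA (log2 0.98 and 0.61, limma adjusted p = 0.074 and 0.15). With TNFa in AdIkBa-SR cells the 3 probe sets were 1.98-fold, 2.64-fold and 1.55-fold higher, and none passed the test (lowest limma adjusted p = 0.69). These are single arrays, and the AdIkBa-SR array is the one with the other wash.

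The mitoferrins, which bring iron into mitochondria, were not called. Slc25a37 had 597 with AdIkBa-SR+TNFa, 593 with AdIkBa-SR, 1004 with AdOVA+TNFa, 946 with AdOVA, 994 with TNFa and 685 untreated. Both AdIkBa-SR arrays were the lowest, with a log2 difference of -0.71 over AdOVA (limma adjusted p = 0.084). Slc25a28 ranged from 152 to 226. Of the genes that use the delivered iron, 10 genes of heme synthesis and iron-sulfur export were measured, and 0 were called with AdOVA (median log2 -0.04, against 0.07 over all genes) or with AdIkBa-SR over AdOVA. Alas1, the first enzyme of heme synthesis, had its lowest signal, 2883, with AdOVA and its highest, 5029, with TNFa.

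**Figure D3:**
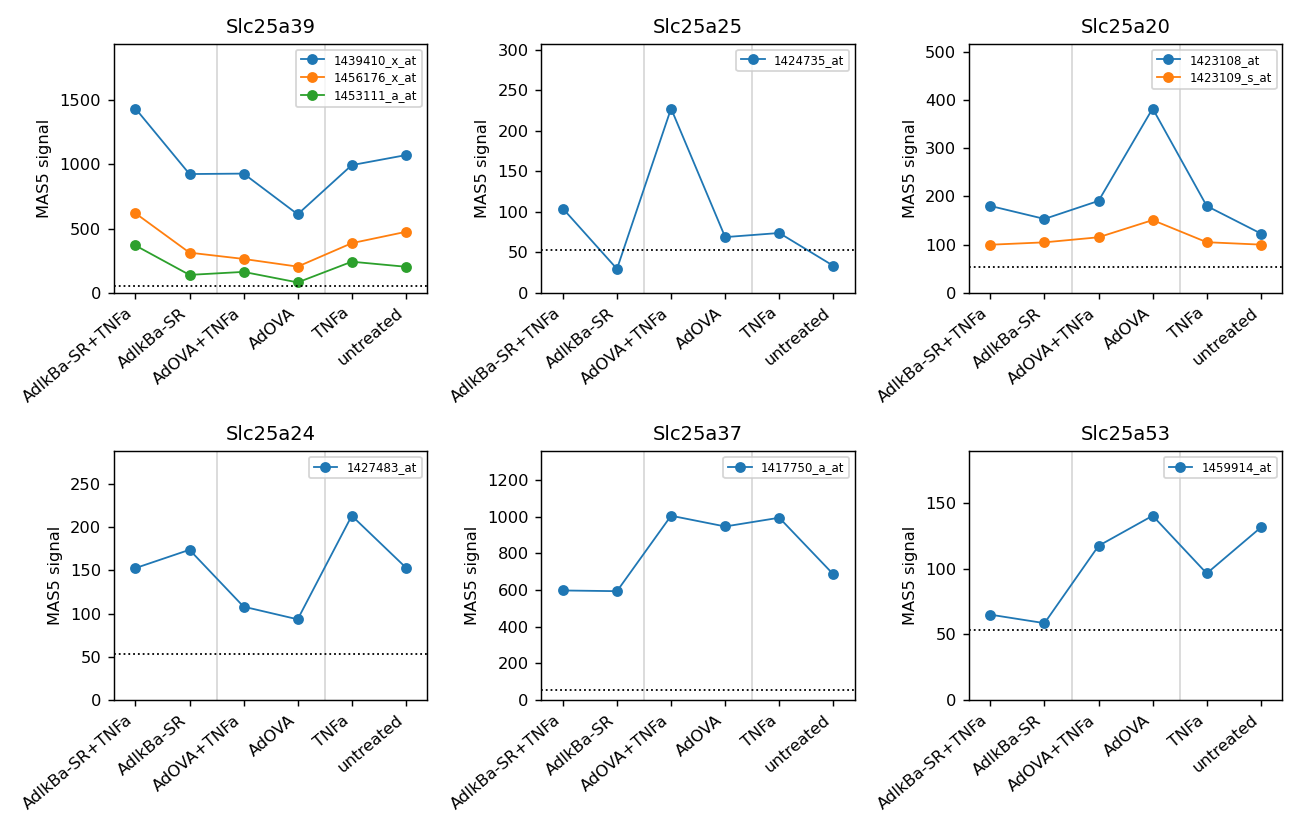
MAS5 signal of 6 carrier genes on the 6 arrays, each panel with its own linear axis from 0, 1 point per array and probe set, and a dotted line at the floor of 53.46. Slc25a39 is highest on the AdIkBa-SR+TNFa array in 3 of 3 probe sets, Slc25a25 is highest on AdOVA+TNFa, Slc25a20 on AdOVA, and Slc25a37 and Slc25a53 are lowest on the AdIkBa-SR and AdIkBa-SR+TNFa arrays.

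Slc25a30, an uncoupling-protein-like carrier, is read by 4 measured probe sets that differed. The probe set 1420836_at had 378 with AdIkBa-SR+TNFa, 511 with AdIkBa-SR, 303 with AdOVA+TNFa, 352 with AdOVA, 577 with TNFa and 462 untreated, and 1450018_s_at had 178 with AdIkBa-SR+TNFa, 313 with AdIkBa-SR, 147 with AdOVA+TNFa, 165 with AdOVA, 367 with TNFa and 257 untreated. Both had the AdOVA arrays lowest (log2 -0.66 and -0.98, limma adjusted p = 0.13 and 0.053), while 1420835_at ranged from 374 to 467 with an AdOVA difference of 0.00. The fourth, 1425948_a_at, ranged from 46.6 to 154. Slc25a14, of the same group, passed the floor on 3 arrays, all without TNFa, at 75.7 with AdIkBa-SR, 57.2 with AdOVA and 57.6 untreated.

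Slc25a53, a member without a settled substrate, had 65.0 with AdIkBa-SR+TNFa, 58.5 with AdIkBa-SR, 117 with AdOVA+TNFa, 140 with AdOVA, 96.4 with TNFa and 131 untreated. Both AdIkBa-SR arrays were just above the floor and below the other 4. It fell with AdIkBa-SR over AdOVA (log2 -1.06, SE 0.31, limma adjusted p = 0.046), and it was not called over no virus (log2 -0.87, adjusted p = 0.73). In the additive model the first value did not pass the test (limma adjusted p = 0.081 on all 6 arrays). It was -1.11 there without the AdOVA+TNFa array (adjusted p = 0.38) and -0.81 without the AdIkBa-SR array (adjusted p = 0.33). Slc25a46, an outer-membrane member with a part in mitochondrial fusion and fission, ranged from 321 to 597 in 1448970_at and from 254 to 496 in 1418134_at.

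Over the family as a whole, AdIkBa-SR over AdOVA gave 7 probe sets risen and 1 fallen, where 3.47% of all measured probe sets rose and 3.39% fell, and 21 of the 54 had an unadjusted p under 0.05, as had 3399 of all 14906. The median log2 difference was 0.12 over the carrier probe sets and -0.09 over all. For AdOVA over no virus the medians were -0.05 and 0.06, and 31 of the 54 lay below 0 (57.4%), as did 6741 of all 14906 (45.2%). Read by the brightest probe set, 15 of the 30 carrier genes lay below 0 and 15 above, with a median of 0.01. Over all 8934 genes, 3918 lay below 0, with a median of 0.07. Both AdOVA arrays stood below the other 4 in 17 of 54 probe sets (31.5%), of the 7 genes Slc25a3, Slc25a4, Slc25a5, Slc25a24, Slc25a30, Slc25a39 and Slc25a45, against 11.7% of all measured probe sets. They stood above the other 4 in 5 (9.26%), of Slc25a20, Slc25a29, Slc25a35 and Slc25a36, against 21.1% of all. Slc25a35 was measured through the AdOVA arrays alone, so the filter fixed its place in this count. The share over all may hold such probe sets too. The AdOVA+TNFa and AdOVA arrays had 63.4% and 62.3% of probe sets above the floor, against 57.9% to 59.2% on the others. Of the 17, 8 are probe sets of Slc25a5, so the shares are not those of 54 separate genes.

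AdIkBa-SR over no virus gave 0 calls among the 54 carrier probe sets, with 1 unadjusted p under 0.05 (Slc25a53), where limma called 0.0335% of all 14906 probe sets and 815 had such a p. Both AdIkBa-SR arrays are of the second round and both arrays without virus of the first, so this difference and the round cannot be told apart. For 1436874_x_at of Slc25a5 the pairs were 1.01-fold with TNFa and 0.893-fold without it. A p over the threshold does not show equal levels. At least a 2-fold difference was seen in 1 probe set per pair, Slc25a53 without TNFa and 1450018_s_at of Slc25a30 with it, both lower with AdIkBa-SR. By the same measure over all 14906, 87 were higher and 81 lower without TNFa, and 462 were higher and 391 lower with it.

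TNFa changed no carrier past the threshold. Over no virus and AdOVA together, 0 of 54 were called, with 3 unadjusted p under 0.05 (Slc25a25, 1425948_a_at of Slc25a30 and 1423772_x_at of Slc25a5), where limma called 0.0268% of all 14906 measured probe sets and 1653 had such a p. In cells without virus, 0 of the 54 were at least 2-fold apart between the TNFa and untreated arrays, where 109 of all 14906 were higher and 157 lower. In AdOVA cells, 4 were at least 2-fold higher with TNFa and 1 at least 2-fold lower, where 701 of all were higher and 495 lower. The 4 were 1416954_at of Slc25a10, Slc25a25, 1425948_a_at of Slc25a30 and 1453111_a_at of Slc25a39, and the 1 was 1423108_at of Slc25a20. The Slc25a30 value rests on an AdOVA signal of 46.6, set to the floor. In the same pair 1420836_at and 1450018_s_at of Slc25a30 were lower with TNFa, and 1420835_at was higher. In AdIkBa-SR cells 1 was higher, 1453111_a_at of Slc25a39, and 0 were lower, where 302 of all were higher and 124 lower. The TNFa response in AdIkBa-SR cells and the difference of the responses gave 0 calls each, with 4 and 0 unadjusted p under 0.05, against 760 and 737 of all 14906. The pair of AdOVA arrays spans both hybridization rounds, so TNFa and the round cannot be told apart within that pair.

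**Figure D4:**
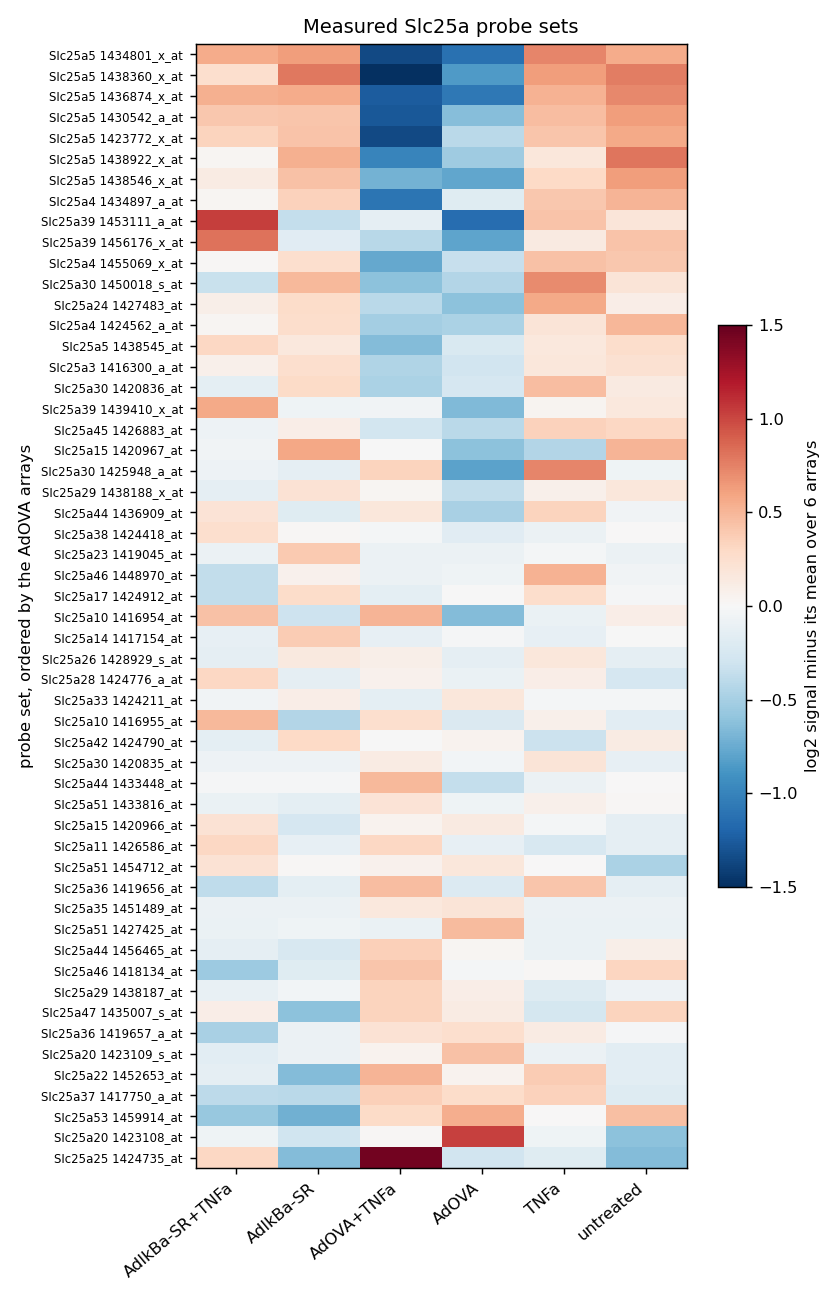
Log2 signal of the 54 measured carrier probe sets on the 6 arrays, each minus its mean over the arrays, with signals under the floor set to it, red above and blue below. Rows run from the probe sets lowest on the AdOVA+TNFa and AdOVA arrays, led by Slc25a5, down to those highest there, which end with Slc25a20 and Slc25a25.

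Probe sets of 1 gene did not always move together. Of the 12 genes with several measured probe sets, 5 had 1 sign in all of them for AdOVA over no virus and 7 had both signs. The other 18 genes rest on 1 measured probe set each. Of the 54 probe sets, 45 were above the floor on all 6 arrays, and 32 were less than 2-fold apart between their highest and lowest array. The measured probe sets nearest the threshold, above the floor on exactly 2 arrays, were those of Slc25a23 and Slc25a35 and 1427425_at of Slc25a51. The 11 unmeasured probe sets include all of Slc25a2, Slc25a13 and Slc25a48, and the other 7 belong to genes that another probe set measured.

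Other genes of the same membrane traffic changed in part. Of 8 measured genes of porins, the pyruvate carrier and sideroflexins, 3 fell with AdOVA and 0 rose, where 312 of all 8934 genes fell and 366 rose. Their median log2 difference was -0.34, against 0.07 over all genes. Vdac2, an outer-membrane porin, had 2571 with AdIkBa-SR+TNFa, 2296 with AdIkBa-SR, 1386 with AdOVA+TNFa, 1646 with AdOVA, 2840 with TNFa and 2856 untreated (log2 -0.91, limma adjusted p = 0.033). Mpc1, a subunit of the pyruvate carrier, had 1233 with AdIkBa-SR+TNFa, 1529 with AdIkBa-SR, 426 with AdOVA+TNFa, 930 with AdOVA, 1116 with TNFa and 1377 untreated (log2 -0.98, limma adjusted p = 0.024). Sfxn3, a sideroflexin, had 264 with AdIkBa-SR+TNFa, 214 with AdIkBa-SR, 116 with AdOVA+TNFa, 77.2 with AdOVA, 307 with TNFa and 188 untreated (log2 -1.34, limma adjusted p = 0.013). In all 3 the AdOVA arrays were the lowest. Mpc1 and Sfxn3 also rose with AdIkBa-SR over AdOVA (log2 1.13 and 1.33, limma adjusted p = 0.013 and 0.015), where 283 of all 8934 genes rose and 308 fell. Vdac1 ran the other way, with 925 on AdIkBa-SR+TNFa, 1149 on AdIkBa-SR, 1797 on AdOVA+TNFa, 2482 on AdOVA, 1340 on TNFa and 1406 on untreated, and fell with AdIkBa-SR over AdOVA (log2 -1.03, limma adjusted p = 0.015).

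The TOM and TIM22 complexes insert carriers into the mitochondrial membranes. Of their 13 measured genes, 0 were called with AdOVA, 11 lay below 0 and the median log2 difference was -0.38, where 3918 of all 8934 genes lay below 0. For TNFa without virus and with AdOVA, 11 of the 13 also lay below 0, with a median of -0.51 and 0 calls, where 4236 of the 8934 did. The small TIM protein gene Timm10b rose with AdIkBa-SR over AdOVA (log2 0.92, limma adjusted p = 0.046), with 431 on AdIkBa-SR+TNFa, 371 on AdIkBa-SR, 137 on AdOVA+TNFa, 325 on AdOVA, 262 on TNFa and 464 on untreated. Of 10 measured regulators of mitochondrial genes, Myc fell with AdOVA (log2 -1.14, limma adjusted p = 0.03) and rose with AdIkBa-SR over AdOVA (log2 1.12, adjusted p = 0.036), and the other 9 were not called. Of all 8934 genes, 312 fell with AdOVA and 283 rose with AdIkBa-SR over AdOVA. Myc had 112 on AdIkBa-SR+TNFa, 141 on AdIkBa-SR, 42.4 on AdOVA+TNFa, 61.7 on AdOVA, 127 on TNFa and 126 on untreated. Of the family members with other symbols, Mtch2, Mtch1 and Ucp3 were measured and 0 were called. Mtch2 had its lowest signal, 270, with AdOVA+TNFa. Mtch1 had 10.3 with AdOVA, a single value under the floor, against 109 untreated. In the other pair Mtch1 was higher with the virus, at 186 with AdOVA+TNFa, against 135 with TNFa (log2 -0.28 over both pairs, limma adjusted p = 0.7).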

How the data were processed

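Total RNA was hybridized to 6 Affymetrix MOE430A arrays, 1 for each of 6 groups taken from the sample titles. The deposited values are linear intensity, with 1 MAS5 signal for each probe set, per the submitters' processing notes. The sources used here give neither its version nor the genome build of the annotation. MAS5 scales each array to a common average, so changes are relative to the whole array. Gene symbols came from GEO's platform annotation, and all 65 member probe sets had a RefSeq gene ID with the same symbol.

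Signals under 53.46, the 40th percentile of the 22626 non-control signals, were set to that floor before log2, which shortens the differences of dim probe sets. A probe set counted as measured when above the floor on at least 2 arrays. limma 3.58.1 in R 4.3.3 (lmFit and eBayes, with the prior variance as a trend of mean signal) was run over all 14906 measured probe sets with 5 coefficients: 3 virus states, 1 TNFa response shared by cells with AdOVA and without virus, and 1 TNFa response in AdIkBa-SR cells. The 1 residual degree of freedom is moderated over probe sets, and it holds no information on how AdIkBa-SR arrays vary. The fit was run on simulated data with known changes in the AdOVA arrays and the same normal noise for all probe sets. That simulation held no round, wash difference or floor, so it cannot show how the fit handles these. The number of arrays limits the precision, and no value has a replicate. Alternatives were other floors, scalings, filters and models, and fits without 1 array. Lists of genes were read by the measured probe set of highest mean signal.

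The members and the gene lists were chosen with earlier results of these data known. Every gene with a measured member probe set is named. All 6 signals are given for probe sets called in any comparison, those at least 2-fold apart in both pairs, the 3 of highest mean signal and all probe sets of genes whose probe sets differed in call, and for some others chosen after their values were seen. Protein sequences were not used here.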

Additional observations from a re-analysis of the deposited data

Results flagged for a closer look

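A pair of carrier probe sets that entered no comparison were above the floor of 53.46 on a single array, the AdOVA array. Slc25a2, an ornithine carrier, had 57.15 there (1425013_at), against 52.4 on the untreated array. Slc25a13, the aspartate and glutamate carrier known as citrin, had 66.5 there (1449481_at), against 37.6 on the untreated array. Both lie close to the floor and neither was tested.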

How the results depend on the processing

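The 10 carrier probe sets called fallen with AdOVA became 4 with the floor at the 25th percentile, 5 with quantile normalization, 0 with no filter and 6 in an additive model with 1 TNFa response. Within the additive model they were 0 with the hybridization round as a block, 0 without the AdOVA+TNFa array and 11 without the AdIkBa-SR array. They were 8 to 14 under the other 4 alternatives. Slc25a4 had no such call with the lower floor, quantile normalization, no filter or the additive model on all 6 arrays. On the scale log2(signal + 50), Slc25a30 and Slc25a39 were also called fallen with AdOVA. Among probe sets above the floor on all 6 arrays, Slc25a24, Slc25a30 and Slc25a39 were. The 7 risen with AdIkBa-SR over AdOVA became 3 with the lower floor, 4 with quantile normalization and 0 with no filter. In the additive model they were 5, and there 0 with the block, 0 without the AdOVA+TNFa array and 6 without the AdIkBa-SR array. They were 6 to 10 under the other 4. The 1 fallen there, Slc25a53, became 0 in 10 of 11 alternatives. Slc25a25 was called risen with AdOVA (1 in place of 0) on the scale log2(signal + 50), and Slc25a20 (1) among probe sets above the floor on all 6 arrays. With the lower floor, 1 probe set in place of 0 was at least 2-fold apart in both pairs in each of AdOVA higher, AdIkBa-SR over AdOVA lower, TNFa higher and TNFa lower. The 6 lower with AdOVA in both pairs were 4 to 7 throughout.

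No value changed sign where it was called. Over the alternatives, the difference of 1436874_x_at of Slc25a5 for AdOVA over no virus ran from -1.93 to -1.72, and that of 1434897_a_at of Slc25a4 from -1.25 to -0.75. With no filter, 6533 probe sets at the floor have no residual, and limma's prior degrees of freedom fell to 0.82, against 17.43. Setting all arrays to equal medians shifted the median AdOVA difference of all probe sets to -0.08, against 0.06, and its calls to 236 risen and 419 fallen, against 600 and 575. With quantile normalization they were 206 and 107, and in the additive model 315 and 177. For AdIkBa-SR over AdOVA, equal medians gave 450 risen and 190 fallen, against 517 and 506. No paired analysis was possible because each group has 1 array and the labels give no replicate numbers to block on. The pairs of arrays are matched by TNFa alone. Signals near the floor limit Slc25a53, Slc25a25 and the dimmest Slc25a5 probe sets.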
